A study of Mus musculus with 6 samples.

Results

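Elastic fibres are built by a small set of secreted proteins, and the genes *Eln*, *Fbn1*, *Fbn2*, *Fbln2*, *Fbln5*, *Emilin1*, *Mfap4*, *Mfap5*, *Lox* and *Loxl1* were examined in RNA of the cardiac side population (SP). They were chosen by name, as elastin, its microfibrils, its linkers and its cross-linking enzymes, and are 10 of the 50600 genes counted. SP cells are heart cells that pump out the DNA dye Hoechst, and here they were sorted from heart digests from which cardiomyocytes and erythrocytes had been depleted. The 6 libraries were made from poly(A) RNA of 3 wild-type (wt) pools and 3 pools labelled flt3L-/-, from mice described as lacking the cytokine Flt3 ligand throughout the body. The wt mice were C57BL/6NRj and the others C57BL/6Flt3Ltml/mx on a C57BL/6N background, all were 8 to 12 weeks old, and every pool was taken from 4 hearts. On each of 3 dates 1 pool of either genotype was sorted, in 2016 for pairs 1 and 2 and in 2017 for pair 3. Libraries are numbered here by pair, so that flt3L-/- libraries 1, 2 and 3 are those whose sample titles end in 3, 4 and 5.

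In an elastic fibre, a core of cross-linked tropoelastin lies on a scaffold of fibrillin microfibrils. Fibulins and EMILIN-1 join the core to the scaffold, and enzymes of the lysyl oxidase family oxidise lysines of elastin and collagen so that the chains become cross-linked. In the heart such fibres lie in the walls of coronary vessels, in valves and in the interstitial matrix, and fibroblasts and smooth muscle cells are known as their main producers.

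Total counts per library lay between 24370913 and 31145519, so that 3 counts were worth 0.109 to 0.127 CPM (reads of a gene scaled to a common library size, with TMM factors). Endothelial markers summed to 7809 to 12064 CPM over the libraries, fibroblast markers to 9954 to 42278 CPM and genes known from SP cells, *Abcg2* among them, to 1813 to 3440 CPM, with no gene of these lists at 0 in any library. Reads on *Flt3l* were not fewer in the libraries labelled flt3L-/-, at 12.4 to 14.4 CPM against 8.67 to 12.1 CPM in wt, so that the labels could not be checked by the targeted gene. Reads do not show whether functional protein was made from them.

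All of the genes were expressed, but at very different levels. Between genes, levels are given as CPM per kilobase of exon (RPKM). In wt, *Fbln2*, a fibulin of vessel walls and basement membranes, was highest at 217 ± 18.7 RPKM (SD, n = 3), which is above 98.9% of the 13475 protein-coding genes tested. The microfibril-associated glycoprotein gene *Mfap4* had 158 ± 33.3 RPKM, and *Fbln5*, whose product binds elastin and LOXL1 and is needed for fibre assembly, had 83.6 ± 10.03 RPKM. *Emilin1* at 48.2 RPKM and *Mfap5* at 45.8 RPKM were next and their ranges over the wt libraries overlapped, as did those of *Loxl1* at 25.5 and *Fbn1* at 22.7 RPKM. *Eln* itself had 15.1 ± 1.07 RPKM, and its range overlapped that of *Fbn1*. *Lox* followed at 8.26 ± 0.572 RPKM. *Fbn2*, the fibrillin known mainly from development, was far lower at 0.222 ± 0.105 RPKM, a level above only 2.06% of the tested genes. In the libraries labelled flt3L-/-, *Fbln2* was again highest and *Lox* and *Fbn2* were again lowest, but the ranges of most neighbours overlapped, and those that did not were *Fbln2* and *Mfap4*, *Fbln5* and *Mfap5*, and *Lox* and *Fbn2*.

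**Figure D1:**
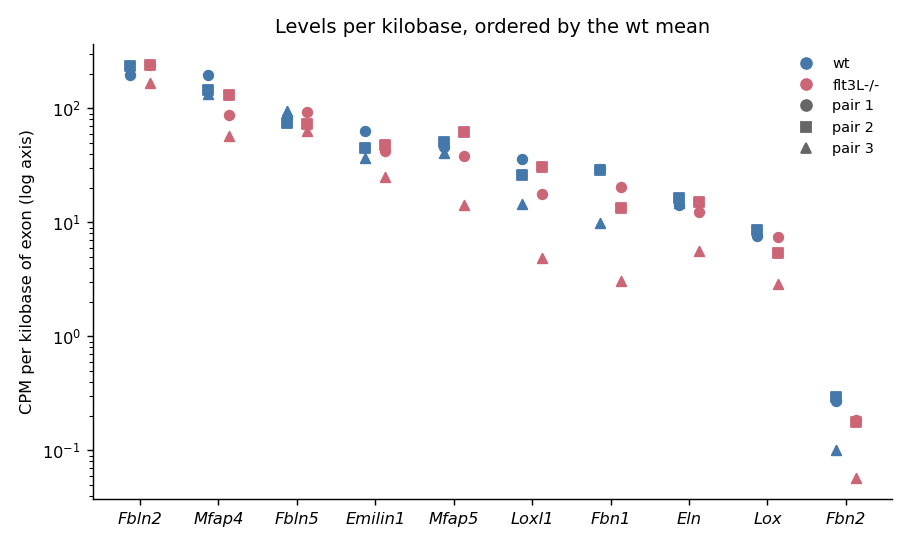
Level of each gene in CPM per kilobase of exon, on a log axis, in the 3 wt and the 3 flt3L-/- libraries, with a symbol for each sorting pair. *Fbln2* and *Mfap4* lead in wt at 217 and 158, and *Fbn2* stands apart at 0.222.

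By counts, *Fbln2* and *Fbln5* took most of the reads of the 10 genes, with 55.1%, 60.8% and 69.1% in wt libraries 1, 2 and 3 and 69.3%, 64.6% and 79.0% in the libraries labelled flt3L-/-. The other 8 genes summed to 1483, 1294 and 913 CPM in wt and to 961, 1123 and 398 CPM in flt3L-/-. Their sum was lower in flt3L-/- on each date, by the smallest amount on the second.

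Between the genotypes, none of the 10 genes passed the test. Each was tested in edgeR's quasi-likelihood model over the 13475 genes with the sorting date as a term, and the lowest Benjamini-Hochberg adjusted p of any gene was 0.973, so that 0 of 10 were called against a background of 0%. The study's own edgeR fit of these libraries did call genes, *Ltbp3* and *Itgav* among them, but none of the 10. Why the fit made here called none was not tested. At an unadjusted p under 0.05, *Fbn1* and *Mfap4* were lower in flt3L-/-, which is 2 of 10 beside 2.49% of all tested genes, and none was higher (1.11%). That count was 5 of 10 without pair 2 and 1 of 10 without pair 3. The count over all genes, in either direction, moved the same way. It was 484 of 13475 with all pairs, 980 of 13111 without pair 2 and 249 of 13304 without pair 3. DESeq2 called 1 of the 10, *Fbn1*, beside 0.156% of all genes it tested, and limma-voom called 0. All 10 fold changes were negative, beside 50.0% of all genes. Their median was −0.63 on the log2 scale, beside −0.00027 for all genes, and 6 of 10 were under −0.5 (10.5%).

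**Figure D2:**
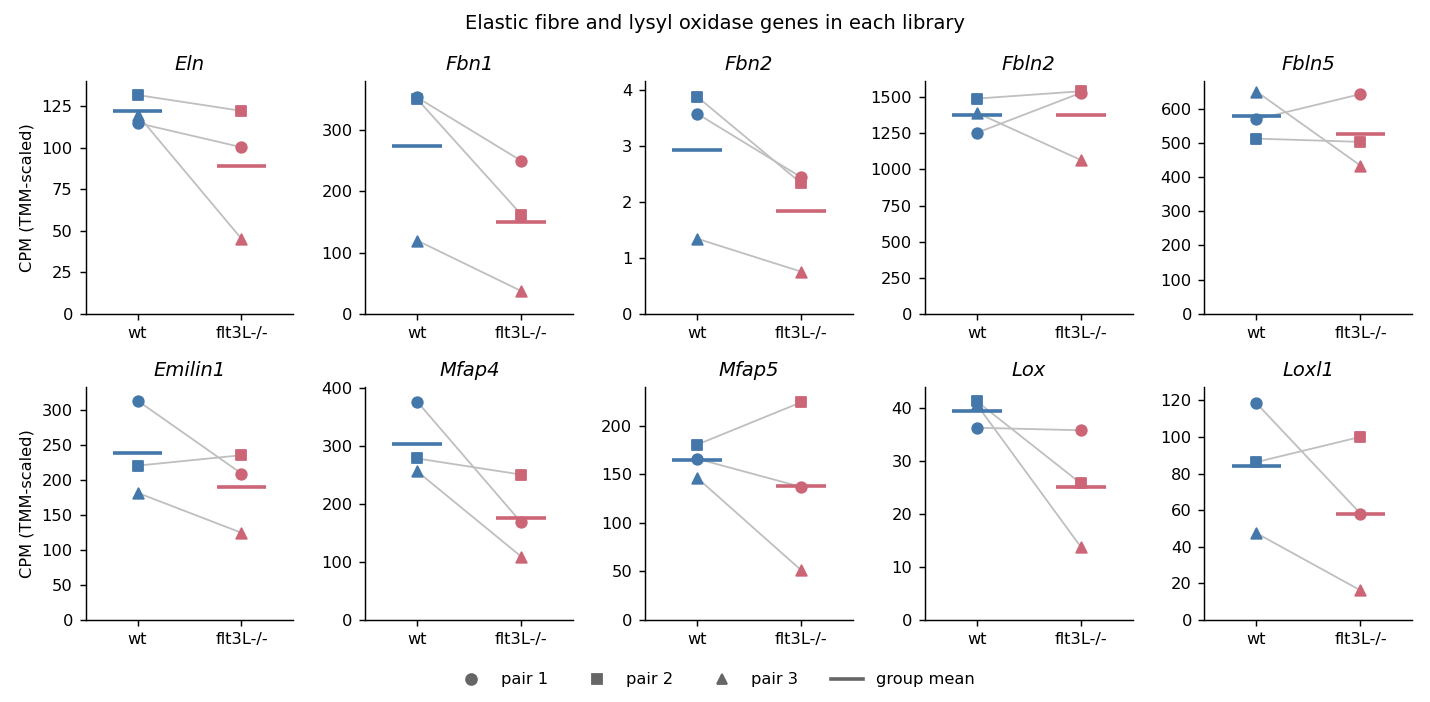
CPM (TMM-scaled) of each of the 10 genes in the 6 libraries, each panel with its own linear axis from 0, a bar at each group mean and a line that joins the libraries of one sorting date. All of them are lowest in flt3L-/- library 3, where *Eln* is at 45.1 CPM and *Fbn1* at 37.0 CPM.

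*Eln* (ENSMUSG00000029675, chr5:134702593-134747323, minus strand, GRCm38) encodes tropoelastin, the elastic core. Its level was 115, 132 and 119.9 CPM in wt and 100.3, 122 and 45.1 CPM in flt3L-/- libraries 1, 2 and 3. The first 2 flt3L-/- libraries lay close to the wt libraries and the third lay far below them. The mean was 122 ± 8.67 CPM in wt and 89.2 ± 39.7 CPM in flt3L-/- (SD, n = 3 each), and the log2 fold change was −0.56 (SE 0.30, 95% interval −1.35 to 0.22, edgeR adjusted p = 0.973). Of its exon bases, 3.30% lie in *Gm30003* on the other strand, which had 32 to 92 counts.

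Among the microfibril genes, *Fbn1* (ENSMUSG00000027204, chr2:125300594-125507993, minus strand) encodes fibrillin-1, the main microfibril protein of adult tissue. It had 354, 351 and 119.7 CPM in wt and 250.3, 162 and 37.0 CPM in flt3L-/-. It was lower in flt3L-/- on every date, but the groups overlapped, since wt library 3 lay below the first 2 flt3L-/- libraries. The log2 fold change was −1.10 (SE 0.26, 95% interval −1.77 to −0.43), with an unadjusted p of 0.00873 that ranked 39 among all genes and an adjusted p of 0.973 in edgeR, and with 0.0492 in DESeq2. Without the sorting date in the edgeR model, the unadjusted p of *Fbn1* was 0.250. With pair 1, 2 or 3 left out, its log2 fold change was −1.40, −1.11 and −0.81. The unadjusted p in edgeR was then 0.00488, 0.0196 and 0.0315, and the adjusted p was 0.919, 0.565 and 0.999. Of the exon bases of *Fbn1*, 20.1% are also exon bases of *Gm9913* on the other strand, and since the libraries were unstranded, reads there cannot be assigned to one strand. *Gm9913* held 231, 260 and 69 counts in wt and 221, 76 and 68 in flt3L-/-.

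*Fbn2* (ENSMUSG00000024598, chr18:58008623-58210487, minus strand), the second fibrillin, rested on few reads, 92, 100 and 36 in wt and 67, 55 and 19 in flt3L-/-. These were 3.58, 3.88 and 1.34 CPM against 2.44, 2.33 and 0.752 CPM. It followed the order of *Fbn1* within each pair, with a log2 fold change of −0.70 (SE 0.32, 95% interval −1.54 to 0.14, unadjusted p = 0.0857 in edgeR). Over the 6 libraries the log2 CPM of the fibrillin genes had the highest correlation of any of the 45 gene pairs (r = 0.98), a description of 6 libraries that share sort and depth.

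*Mfap4* (ENSMUSG00000042436, chr11:61485431-61488900, plus strand), whose product binds elastin and fibrillin, had 377, 279 and 256 CPM in wt and 168, 251 and 109 CPM in flt3L-/-. The groups did not overlap, although the lowest wt and the highest flt3L-/- library were nearly level. The mean was 304 ± 64.0 against 176 ± 71.1 CPM, with a log2 fold change of −0.85 (SE 0.26, 95% interval −1.53 to −0.17, unadjusted p = 0.0236 and adjusted p = 0.973 in edgeR). The unadjusted p of *Mfap4* in edgeR was 0.117 without pair 1, 0.00143 without pair 2 (adjusted p = 0.510) and 0.110 without pair 3. *Mfap4* shares 4.63% of its exon bases with *Mapk7* on the other strand.

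*Mfap5* (ENSMUSG00000030116, chr6:122505845-122529290, plus strand) encodes a small glycoprotein bound to microfibrils. It had 166, 181 and 147 CPM in wt and 137, 224 and 51.4 CPM in flt3L-/-. The highest and the lowest value of all 6 libraries both came from flt3L-/-. The log2 fold change was −0.48 (SE 0.38, 95% interval −1.46 to 0.50, unadjusted p = 0.257 in edgeR).

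*Emilin1* (ENSMUSG00000029163, chr5:30913402-30921277, plus strand) encodes the glycoprotein at the border of elastin and microfibrils. It had 313, 220.0 and 181 CPM in wt and 209, 235 and 124 CPM in flt3L-/-. The groups overlapped, and pair 2 went the other way from pairs 1 and 3. The log2 fold change was −0.35 (SE 0.19, 95% interval −0.83 to 0.14, unadjusted p = 0.126 in edgeR).

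The fibulin genes had the fold changes nearest to 0. *Fbln2* (ENSMUSG00000064080, chr6:91212455-91272540, plus strand) had 1254, 1491 and 1393 CPM in wt and 1531, 1542 and 1066 CPM in flt3L-/-. Its means were 1379 ± 119 and 1379.8 ± 272 CPM, and the log2 fold change was −0.016 (SE 0.19, 95% interval −0.52 to 0.49, edgeR adjusted p = 0.994). *Fbln5* (ENSMUSG00000021186, chr12:101746565-101819055, minus strand) had 569, 513 and 651 CPM in wt and 643, 503 and 434 CPM in flt3L-/-. Its log2 fold change was −0.14 (SE 0.20, 95% interval −0.66 to 0.37, edgeR adjusted p = 0.974). In pair 1 both fibulin genes were higher in flt3L-/- and in pair 3 both were lower. Whether the fibulins differed from the other 8 genes in their response to genotype was not tested.

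Of the cross-linking enzymes, *Lox* (ENSMUSG00000024529, chr18:52516067-52529867, minus strand) encodes lysyl oxidase. It had 36.3, 41.3 and 40.7 CPM in wt, which were close together, and 35.8, 25.8 and 13.8 CPM in flt3L-/-. The groups did not overlap, by a narrow margin in pair 1. The mean was 39.4 ± 2.73 against 25.2 ± 11.03 CPM, with a log2 fold change of −0.75 (SE 0.32, 95% interval −1.59 to 0.097, unadjusted p = 0.0715 in edgeR).

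*Loxl1* (ENSMUSG00000032334, chr9:58287738-58313186, minus strand) encodes the lysyl oxidase that acts with fibulin-5 on elastin. It had 118, 86.3 and 47.4 CPM in wt and 58.1, 100.02 and 16.1 CPM in flt3L-/-. It was lower in flt3L-/- in pairs 1 and 3 and higher in pair 2, so the groups overlapped widely. The log2 fold change was −0.79 (SE 0.37, 95% interval −1.75 to 0.17, unadjusted p = 0.0875 in edgeR). *Lox* and *Mfap4* were thus the genes without overlap, 2 of 10 beside 2.92% of all tested genes, and 0 were higher without overlap (3.53%).

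The difference between the genotypes was not the same in the 3 pairs. With 1 pool of either genotype per date, an effect of the date on this difference cannot be told apart from variation between pools, and it was not tested. In pair 1, 8 of 10 genes were lower in flt3L-/- (45.9% of all genes), in pair 2 it was 6 (49.6%), and in pair 3 all 10 (48.8%). The median log2 difference of the 10 genes was −0.39, −0.068 and −1.32 in pairs 1, 2 and 3. *Eln*, *Fbn1*, *Fbn2*, *Mfap4* and *Lox* were lower in every pair, 5 of 10 beside 11.5% of all genes, and 0 were higher in every pair (14.2%). For every gene but *Emilin1*, the difference of pair 3 was the largest in size of the 3. It was far apart from the others for *Eln* (−1.41 against −0.20 and −0.11), *Mfap5* (−1.51 against −0.28 and 0.31) and *Lox* (−1.55 against −0.019 and −0.68). *Emilin1* differed by −0.58 in pair 1 and −0.55 in pair 3. Without pair 3 the median fold change was −0.30, and *Fbln2*, *Fbln5* and *Mfap5* had positive values. All 10 genes were lowest in flt3L-/- library 3, beside 25.2% of all tested genes.

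**Figure D3:**
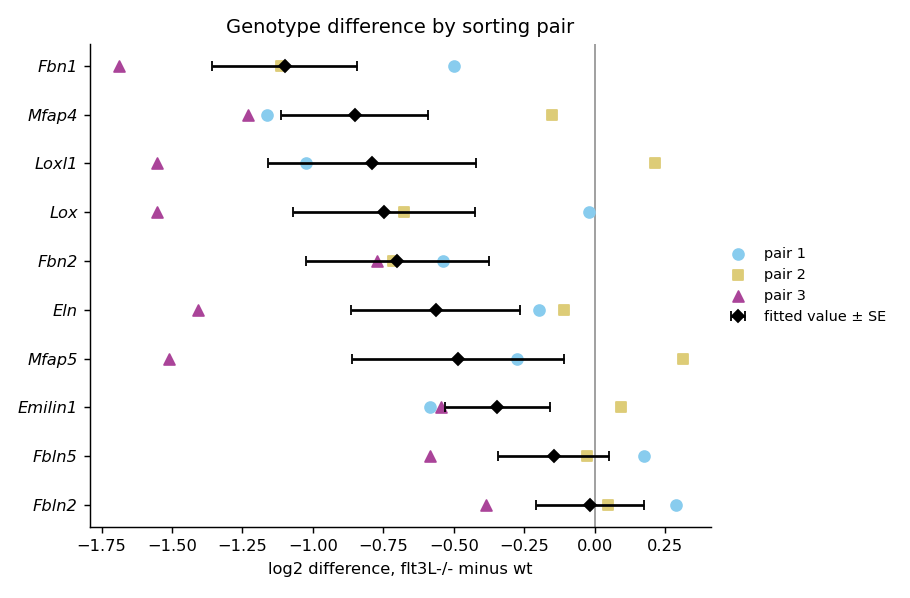
Log2 difference in CPM, flt3L-/- minus wt of the same sorting date, for each gene and pair, with the log2 fold change of the model as a diamond and its SE as the bar. The pair 3 points lie below 0 for all 10 genes, while those of pair 2 lie on both sides.

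Some of the genes also varied between sorting dates within each genotype. For *Fbn1*, *Fbn2*, *Emilin1*, *Mfap4*, *Mfap5* and *Loxl1* the 2017 library was below both 2016 libraries in both groups, 6 of 10 beside 18.8% of all genes. In the same edgeR model, an F test for each gene covered all 3 sorting dates together. The 2017 date was not tested against the first alone. The unadjusted p of that F test was 0.00345 for *Fbn1* (adjusted p = 0.598), 0.0242 for *Fbn2*, 0.0288 for *Loxl1* and 0.0483 for *Emilin1*. The log2 difference of the 2017 date from the first was −2.16 for *Fbn1*, −1.55 for *Fbn2*, −1.54 for *Loxl1* and −0.77 for *Emilin1*. These were 4 of 10 genes at an unadjusted p under 0.05, beside 8.28% of all genes, and after Benjamini-Hochberg adjustment 0 were called (0%), while DESeq2 called *Fbn1* and *Loxl1*, beside 3.18%. The date and whatever else differed between sorts cannot be told apart.

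Markers of fibroblasts moved with these genes. The 9 fibroblast markers (*Pdgfra*, *Dcn*, *Lum*, *Dpt*, *Col1a1*, *Col1a2*, *Tcf21*, *Gsn* and *Pi16*) summed to 21342 to 42278 CPM in wt and 9954 to 32084 CPM in flt3L-/-, none was at 0, and 0 of 9 were called. Their mean log2 difference was −0.96, 0.12 and −1.33 in pairs 1, 2 and 3, and their median log2 fold change was −0.64. Beside the 0% of all tested genes that were called, 3 of the 9 were lower in every pair (11.5%) and 0 higher (14.2%). At an unadjusted p under 0.05 in edgeR, 2 of the 9 were lower (2.49%). In bulk RNA, fewer cells of a type and less RNA per cell cannot be told apart. Over the 6 libraries the mean log2 CPM of the 10 genes followed that of the fibroblast markers (r = 0.97, rho = 0.89), and r was 0.74 without wt library 1 and flt3L-/- library 3, which lay farthest from the median. The closest single genes were *Loxl1* (r = 0.99), *Emilin1* (0.96) and *Mfap4* (0.94), and *Fbln2* (0.63) and *Fbln5* (0.42) followed the markers least. When each gene was set against the mean of the fibroblast markers, 0 of 10 were lower and 0 were higher in all 3 pairs. This scaling was chosen after the values had been seen. Since the marker differences had both signs, a gene without any difference would also be in neither count. The share of all genes in these counts is not given here. On that scale *Fbn1* differed between flt3L-/- and wt by 0.46, −1.24 and −0.35 in pairs 1, 2 and 3, and *Fbln2* by 1.25, −0.075 and 0.95.

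**Figure D4:**
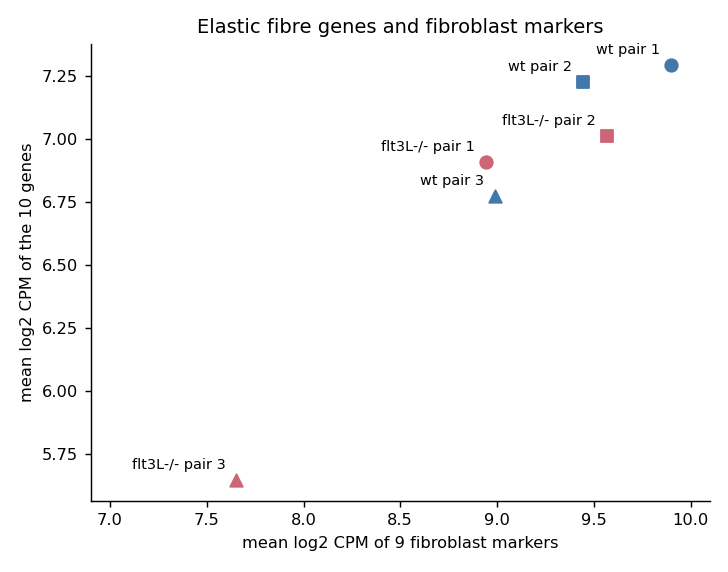
Mean log2 CPM of the 10 genes against the mean log2 CPM of the 9 fibroblast markers, with 1 point for each library. The points lie near a rising line (r = 0.97 over 6 libraries), with flt3L-/- library 3 at the lower left.

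Markers of other cell types were set beside the genes in the same way. The 10 pericyte and smooth muscle markers summed to 299 to 596 CPM in wt and 231 to 391 CPM in flt3L-/-, none was at 0, and their mean log2 difference was −0.50, 0.28 and −0.79 by pair. Of these markers, 3 of 10 were lower in every pair (11.5% of all tested genes) and 1 higher (14.2%). At an unadjusted p under 0.05 in edgeR, 2 of 10 were lower (2.49%). The 8 endothelial markers summed to 7809 to 10324 CPM in wt and 8357 to 12064 CPM in flt3L-/-, with differences of 0.43, −0.26 and 0.35, of the opposite sign to the fibroblast and pericyte markers in each pair. The correlation of single genes with the pericyte and smooth muscle markers lay between 0.45 (*Fbln2*) and 0.93 (*Emilin1*), so that the likeness was not seen with fibroblast markers alone, and *Fbln5* had a higher r with them (0.62) than with the fibroblast markers. With the endothelial markers all were negative, from −0.93 (*Emilin1*) to −0.35 (*Fbln2*). These are descriptions over the same 6 libraries. Macrophage markers ranged from 49.6 to 1729 CPM in wt and from 91.7 to 956 CPM in flt3L-/-, with mean log2 differences of 0.82, 0.29 and −2.59. The 5 lymphocyte and NK markers that passed the level filter summed to 41.5 to 171 CPM in wt and 23.8 to 80.6 CPM in flt3L-/-. Their differences were −0.41, −0.082 and −2.77, with a median log2 fold change of −1.43 and 3 of 5 lower in every pair (11.5% of all tested genes). Both lists thus had their lowest difference in pair 3, as the elastic fibre genes did. The part of these markers in the values of the elastic fibre genes was not tested, and the fibroblast scaling is a description only.

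The wider pathway was read from lists of related genes in the same model. The 4 latent TGF-beta binding proteins sit on fibrillin microfibrils, and some of them hold TGF-beta there. All 4 genes were lower in flt3L-/- in each pair (11.5% of all tested genes), and 3 at an unadjusted p under 0.05 (2.49%) in edgeR. Their median log2 fold change was −0.66, and 0 were called in edgeR. *Ltbp4*, which is needed for elastin assembly and had the most counts, was at 4333 ± 1116 CPM in wt and 3709 ± 1490 CPM in flt3L-/- (log2 fold change −0.27). *Ltbp3* was at 289, 159 and 58.8 CPM in wt and 161, 116 and 40.2 CPM in flt3L-/-, higher in wt within each pair while both groups spread widely over the dates (log2 fold change −0.62, SE 0.14, unadjusted p = 0.00767, adjusted p = 0.973 in edgeR).

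Of the 5 other fibulin genes none was lower in all 3 pairs (11.5% of all tested genes), their median was −0.45, and *Fbln1* had 437 ± 73.8 against 299 ± 133 CPM. Of 10 further microfibril and EMILIN family genes 8 could be tested, with a median of −0.39, 1 lower (2.49% of all tested genes) and 0 higher (1.11%) at an unadjusted p under 0.05. That gene, *Adamtsl4*, which encodes a fibrillin-binding protein, had a log2 fold change of −0.67 (unadjusted p = 0.0498 in edgeR), while the endothelial multimerin *Mmrn2* was at 594 ± 82.7 CPM in wt and 754 ± 195 CPM in flt3L-/- (log2 fold change 0.32). *Emilin3* and *Adamts17* were below the minimum level for the test.

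The 8 other lysyl oxidases and genes for their activation had a median of −0.47 and none under an unadjusted p of 0.05, beside 2.49% of all tested genes lower and 1.11% higher. *Pcolce*, an enhancer of procollagen C-proteinase, was at 193 ± 46.4 against 144 ± 97.5 CPM. Of 8 elastin-degrading proteases 7 could be tested, *Elane* having at most 4 counts in a library, with a median of −0.48. *Mmp2*, a gelatinase, had a log2 fold change of −0.65 (unadjusted p = 0.0649 in edgeR) and *Ctsl*, a lysosomal cathepsin, −0.059. The 7 receptor genes had a median of −0.043. Among them, the integrin gene *Itgav* had the smallest p (log2 fold change −0.58, SE 0.13, unadjusted p = 0.00715 in edgeR), and the integrin gene *Itgb1* had the most counts (log2 fold change 0.12, SE 0.17). Over these 6 lists the edgeR fit made here called 0 genes (0% of all tested genes), and 0 were higher at an unadjusted p under 0.05 (1.11%).

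**Figure D5:**
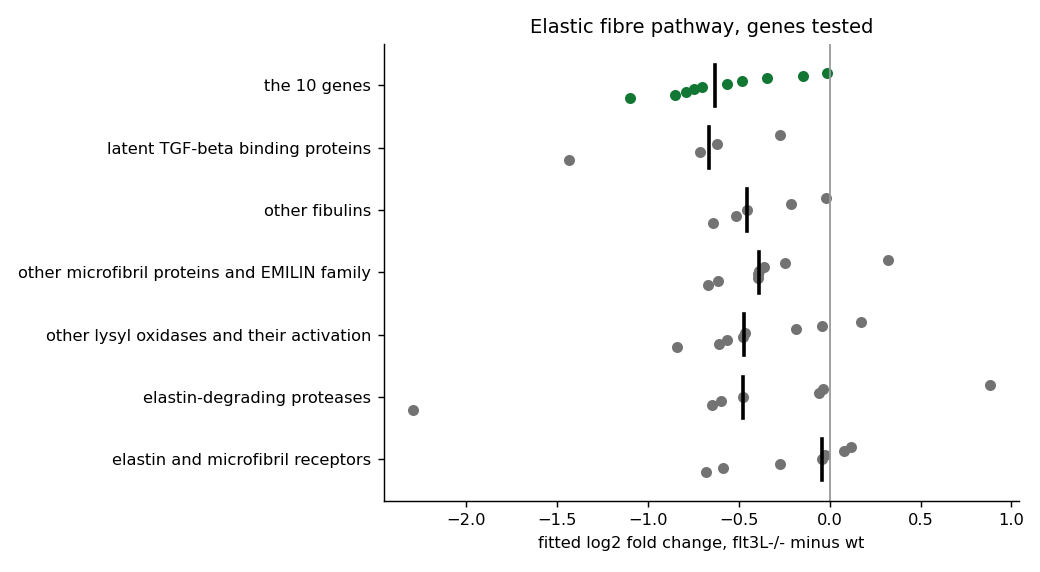
Log2 fold change, flt3L-/- minus wt, of the 10 genes and of the 6 related gene lists, with 1 point for each gene and a line at the median of a list. The medians of 6 of the 7 groups lie between −0.66 and −0.39, and that of the receptors lies at −0.043.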

How the data were processed

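The authors deposited raw read counts per gene for 50600 genes in 6 libraries. Per the study's methods, unstranded SMART-Seq v4 libraries were sequenced as single reads of 81 bases, aligned to mm10 with STAR 2.5.2a (up to 10 hits, 1 chosen at random among equal best hits), and reads starting in an exon were counted on Ensembl 88. Reads of near-identical sequences may therefore be misplaced. Strand was not used.

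Here, protein-coding genes (GENCODE M21) with over 1 CPM in at least 2 libraries were tested, 13475 in all, and the 10 genes were found by symbol. edgeR 4.0.16 (TMM factors, quasi-likelihood, legacy = TRUE) was run on R 4.3.3 with genotype and sorting date as terms, and Benjamini-Hochberg adjusted p-values under 0.05 were called. SE values follow from the F statistic, and pair differences use a prior count of 2. Pools of the same date were paired, since the labels give 3 shared sorting dates. After removal of group means, libraries of the same date correlated by 0.180, 0.104 and 0.116, against −0.354 to 0.247 for libraries of different dates, so the pairing rests on the dates. The intervals rest on 2 residual degrees of freedom plus 2.79 prior ones, which the model estimates over all genes, and they are wide. On the residual degrees of freedom alone they would be wider. The fit was run on simulated counts, with less spread than these data, no date effect and larger changes than those of the 10 genes. That run does not measure power or error for these libraries.

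The genes, the 6 pathway lists, the 12 marker lists and the tests were chosen with earlier results of these data known. Values of 1 marker gene are not reported here. The text names all 10 genes and, of each pathway list, the gene with the most counts and that with the smallest p, *Ltbp3* to *Itgav* among them. Alternatives were 3 other normalizations, DESeq2 1.42.0, limma-voom 3.58.1, legacy = FALSE, 2 other filters, all biotypes, no sorting date, each pair left out, and an adjusted p of 0.1. Protein sequences were not used here.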

Additional observations from a re-analysis of the deposited data

How the results depend on the processing

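The count of 0 called genes among the 10, and over all genes, was the same with 3 other normalizations, legacy = FALSE, limma-voom, 2 other filters, all biotypes, an adjusted p of 0.1 and each pair left out. With DESeq2 it was 21 genes and 1 of the 10, *Fbn1* (log2 fold change −1.10, adjusted p = 0.0492, against 0.95 or more for *Fbn1* elsewhere with all libraries), and for the sorting date 403 genes and 2 of the 10. Of 100 values of the 10 genes under alternatives with all libraries, 98 kept direction and call. The median fold change lay between −0.67 and −0.49 there, and between −0.81 and −0.30 with a pair left out.

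Without the replicate block by sorting date, *Fbln2* had a log2 fold change of 0.00040 in place of −0.016, the median was −0.49, and 262 in place of 484 genes had an unadjusted p under 0.05, 1 of the 10 among them in place of 2, with no other change of direction or of an adjusted call. With 1 pair left out, 0 to 112 genes were called for the date, and 5 to 8 of the 10 genes were lower in all pairs that remained. The highest values, 112 and 8, came without pair 2. Being lower in the pairs that remain is an easier condition than in all 3 pairs, and its share over all genes is not given here. With 1 pair left out, *Fbln2* lay between −0.17 and 0.17, *Fbln5* between −0.31 and 0.074 and *Mfap5* between −0.91 and 0.018, each with its positive value without pair 3. *Eln* lay between −0.82 and −0.15, *Lox* between −1.12 and −0.35, *Loxl1* between −1.31 and −0.41 and *Emilin1* between −0.59 and −0.23. *Fbn1* lay between −1.40 and −0.81, *Mfap4* between −1.22 and −0.66 and *Fbn2* between −0.78 and −0.64. At an unadjusted p under 0.05, 1 to 5 of the 10 genes were lower with a pair left out, and 2 to 4 in the other fits with the date. Over all genes, in either direction, 249 to 980 of 13111 to 13304 passed with a pair left out. In the other fits with the date it was 468 to 641 of 13475 to 19612. Scaled to the fibroblast markers, chosen after seeing the data, 0 were lower in all 3 pairs, and a gene without any difference would not be either. The cause of these shifts was not tested. With 19 to 100 counts per library, *Fbn2* is the gene that depth limits most.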

Other observations

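Among the 13475 genes, those whose log2 CPM was most like that of *Eln* over the 6 libraries, by Pearson's r, were *Il18* (r = 0.999), *Map2k7* (0.992), *Fam49a* (0.992), *Scn7a* (0.990) and *Slco2a1* (0.990). *Il18*, a cytokine gene, was at 0.619 to 1.32 CPM in 5 libraries and at 0 in flt3L-/- library 3, so its likeness rests on very few reads. *Map2k7*, a kinase gene of the JNK pathway, lay between 40.9 and 44.5 CPM in 5 libraries and at 28.6 CPM in flt3L-/- library 3. *Scn7a*, a sodium channel gene, had 114, 126 and 86.1 CPM in wt and 69.8, 107 and 13.2 CPM in flt3L-/-.

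Most like the mean of the 10 genes were *Cilp* (r = 0.998), *Hs3st3a1* (0.998), *Adamtsl4* (0.995), *Lama2* (0.995) and *Abca6* (0.994), each with rho = 1. *Cilp*, which encodes a matrix protein of cartilage and of cardiac fibroblasts, had 170.0, 139.7 and 78.5 CPM in wt and 96.6, 118 and 19.6 CPM in flt3L-/-. *Lama2*, the laminin alpha-2 gene, had 226, 169.7 and 105 CPM in wt and 127, 142 and 12.3 CPM in flt3L-/-. In each of these genes the lowest value was that of flt3L-/- library 3. With 6 libraries and the best of 13475 genes taken, such values of r are a description of these libraries.

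The 45 pairs among the 10 genes had r between 0.31 (*Fbn2* and *Fbln5*) and 0.98 (*Fbn1* and *Fbn2*), with a median of 0.79, and none was negative. *Eln* was most like *Mfap5* (r = 0.97), and *Emilin1* like *Loxl1* (0.96).

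Markers of other cells were counted beside these genes. Neutrophil markers summed to 1.83 to 87.96 CPM in wt and 5.70 to 196 CPM in flt3L-/-, with *Ly6g* at 0 in at least 1 library, and their mean log2 difference was 5.15, 1.10 and −3.41 in pairs 1, 2 and 3. Cardiomyocyte markers summed to 101 to 144 and 151 to 184 CPM, erythroid markers to 243 to 419 and 372 to 491 CPM, and mesothelial markers to 22.0 to 62.0 and 37.7 to 54.7 CPM. The mean log2 difference of the cardiomyocyte markers was 0.78, 0.52 and 0.10 in pairs 1, 2 and 3. Of the 5 that passed the level filter, 4 were higher in flt3L-/- in every pair (14.2% of all tested genes) and 0 lower (11.5%). Markers of endocardial and lymphatic endothelium summed to 29.4 to 41.2 and 15.4 to 47.5 CPM, and those of cycling cells to 13.1 to 18.7 and 14.7 to 19.9 CPM. None of these lists held a called gene, and their part in the values of the elastic fibre genes was not tested.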
